A study of Mus musculus with 6 samples.

Results

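The enzymes that write, copy and remove DNA methylation were examined here: the maintenance genes Dnmt1, Uhrf1 and Hells, the de novo genes Dnmt3a, Dnmt3b and Dnmt3l, and the dioxygenase genes Tet1, Tet2 and Tet3. Every probe set that the platform annotation assigns to 1 of these genes alone was taken, which gave 23 probe sets for 9 genes, of 45037 probe sets tested and 18193 genes with a probe set of their own. RNA came from prepubertal mouse testis cells separated by magnetic sorting for the surface glycoprotein Thy1. The Thy1-positive fraction, in which transplantation placed more spermatogonial stem cells per the labels, and the Thy1-negative fraction each have 3 Affymetrix arrays, numbered 1 to 3, from independent donor preparations. No transgene, deletion or treatment is named for either fraction, and the strain and exact age are not given in the sources used here. Both fractions are mixtures of cells, so fewer cells of a type and less RNA per cell cannot be told apart in any value below.

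DNA methylation sits mostly on cytosines that precede a guanine, so that both strands of a CpG site carry it. After replication only the old strand is methylated; UHRF1 recognises such half-methylated sites and brings DNMT1, which copies the mark, while HELLS is a chromatin remodeller that opens packed DNA to the methylation machinery. DNMT3A and DNMT3B methylate sites anew, DNMT3L is a partner without catalytic activity of its own, and the TET proteins oxidise methylcytosine as a step towards its removal. In the male germ line of mice the sperm pattern is laid down in fetal germ cells and is then copied by the dividing spermatogonia after birth.

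Values are log2(intensity + 1), a difference is Thy1-positive minus Thy1-negative, SD describes the 3 arrays of one fraction, SE is that of limma, and a probe set was called when its adjusted p from limma over all 45037 probe sets was below 0.05. Array medians lay between 4.06 and 4.09 for Thy1-positive arrays, and between 4.18 and 4.21 for Thy1-negative arrays. Thy1 itself measured 6.05, 6.52 and 6.05 on Thy1-positive arrays 1, 2 and 3, against 2.35, 2.35 and 2.74 on Thy1-negative arrays 1, 2 and 3, as the labels imply. Markers of several cell types moved between the fractions. Over all 18193 genes, each by its probe set of highest mean, 16.4% were called higher and 13.2% lower. All 14 macrophage markers were called higher, and their summed intensity was 16470 to 23339 in Thy1-positive against 165 to 202 in Thy1-negative cells. Of 14 markers of undifferentiated spermatogonia 12 were higher and 0 lower (sums of 22802 to 24139 against 4344 to 6518), and of 12 genes of the germ line at large 4 were called higher and 0 lower (57519 to 60232 against 13794 to 40218). Of 12 Sertoli cell markers 11 were lower and 0 higher (4704 to 17090 against 73255 to 94608), and of 7 peritubular myoid markers 5 were lower (1735 to 2228 against 12930 to 14791). Leaving out 1 array kept all 14 macrophage calls, and left 8 to 13 of the undifferentiated spermatogonia, 3 to 11 of the Sertoli, 3 to 5 of the myoid and 0 to 12 of the germ line calls, that 12 without Thy1-negative array 2. Of 8 T lymphocyte markers 3 were higher, of 4 Leydig cell markers 1 was lower, and of 6 endothelial markers 1 was higher. None of these markers was listed at 0. Thy1-negative array 2 had the highest germ cell sum of its fraction, and Thy1-positive array 2 the highest Sertoli cell sum of its own.

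RefSeq start regions of the 9 genes were read for the binding word of E2F factors, which switch on genes of DNA replication, because the maintenance genes serve replication. The words TTTCGCGC, TTTCCCGC, TTTGGCGC and TTTGCCGC were searched on both strands of the 250 bases before each start (GRCm38.p6). They were chosen with the array values known. A word was present at 1 start each of Dnmt1, Uhrf1 and Hells and at none of the other members, whereas 1.86% of the 32851 start windows in the table hold a word and 2.16% of its 27025 genes have one at any start. Each word holds a CpG site, and these windows hold 26 (Dnmt1), 30 (Uhrf1) and 28 (Hells), against a median of 6 over all start windows. The share among windows of like CpG content was not computed. The 30 bases around each are shown 5′ to 3′ on the gene's strand, with the word in capitals; that of Dnmt1 reads on the opposite strand.
Dnmt1, chr9:20952824-20952853, minus strand, 219 bases before the start: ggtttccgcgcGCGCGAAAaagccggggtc
Uhrf1, chr17:56304117-56304146, plus strand, 185 bases before the start: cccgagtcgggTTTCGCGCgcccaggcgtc
Hells, chr19:38930917-38930946, plus strand, 62 bases before the start: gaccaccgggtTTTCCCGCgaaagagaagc
Of the 20 listed genes of S phase and mitosis, 16 have a start region in the table and 5 of these hold a word, namely Mcm5, Mcm6, Mcm7, Cdk1 and Cdc6. In the other lists the only genes with a word were Cdca7 (1 of 12 recruiters and protectors), Sycp3 (1 of 15 methylation-silenced and 1 of 9 pan-germline genes) and Polr2a (1 of 11 housekeeping genes). A match describes letters in these windows, not a bound site.

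Of the 23 probe sets, 7 were called higher and 5 lower in Thy1-positive cells. Over all probe sets 11.8% were called higher and 11.5% lower, together 23.4%. The share among the members was 52.2%, in which probe sets of the same gene count separately (5 of Dnmt3a and 3 of Dnmt1). In a fit over genes, with 1 probe set for each, 3 of the 9 members were called higher and 1 lower. In that fit 18.5% of all 18193 genes were called higher and 14.4% lower. Dim probe sets are seldom called: of 18 members with a mean above the median of all probe sets, 7 were called higher and 4 lower (61.1%), where 21.6% and 20.9% of all such probe sets were (42.5% in all). For 16 members no array of one fraction fell within the range of the other, 9 with Thy1-positive arrays above and 7 with them below; the shares over all probe sets were 24.9% and 18.7% (43.6% in all). Of the members 10 were called higher and 7 lower with arrays centred on their median, and 5 higher and 7 lower with arrays centred on housekeeping genes, so the balance of their calls turned with the scaling. The share of higher calls among all calls was 50.6%, 81.4% with arrays centred on their median and 39.6% with arrays centred on housekeeping genes. Those scalings moved the median difference of all probe sets, 0.00398 as deposited, to 0.126 and -0.111; the median over the 23 members was 0.106. The member counts leaned on single arrays: they were 2 higher and 4 lower without Thy1-positive array 1, 3 and 4 without Thy1-positive array 2, and 0 and 2 without Thy1-positive array 3, where 7 and 6 still had an unadjusted p below 0.05. They were 3 and 5 without Thy1-negative array 1, 9 and 6 without Thy1-negative array 2, and 2 and 4 without Thy1-negative array 3.

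**Figure D1:**
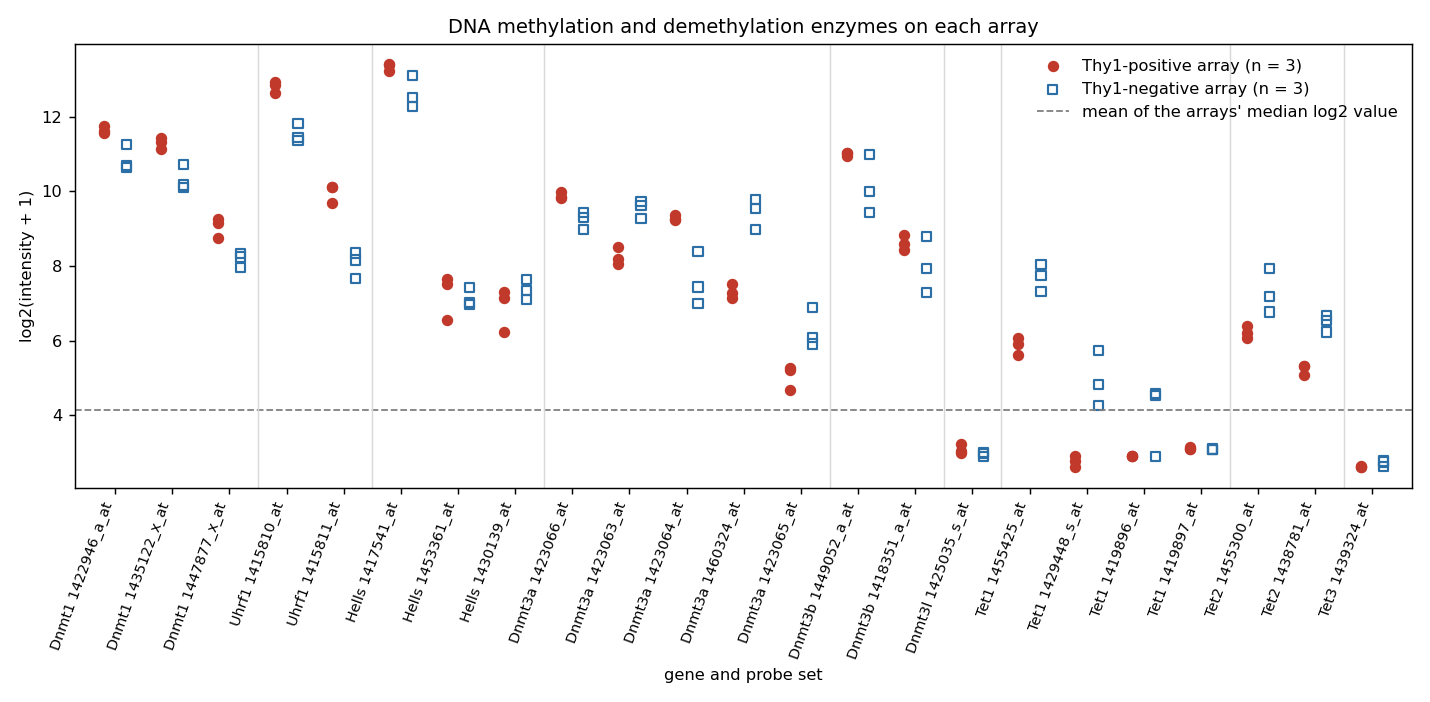
Log2(intensity + 1) of the 23 member probe sets (x axis, grouped by gene) on each array; filled circles are the 3 Thy1-positive arrays, open squares the 3 Thy1-negative arrays, and the dashed line is the mean of the array medians. Dnmt1 and Uhrf1 lie higher in Thy1-positive cells on every array, Tet1 1455425_at and Tet2 lower, and Dnmt3a has probe sets of both kinds.

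The maintenance genes were higher in Thy1-positive cells for Uhrf1 and Dnmt1. Uhrf1, the reader of half-methylated sites, measured 12.93, 12.62 and 12.84 on Thy1-positive arrays 1, 2 and 3, against 11.36, 11.82 and 11.43 on Thy1-negative arrays 1, 2 and 3, with probe set 1415810_at. Each Thy1-positive array lay above each Thy1-negative one, and the mean was 2.40-fold higher (1.26, SE 0.16, limma adjusted p = 0.0104). Its other probe set, 1415811_at, measured 10.11, 9.69 and 10.13 in Thy1-positive against 8.16, 8.35 and 7.67 in Thy1-negative cells. That is 3.77-fold higher (1.92, SE 0.23, limma adjusted p = 0.00947), again with no overlap. Uhrf1 was the member with the lowest adjusted p among the higher probe sets. Both of its calls were lost without Thy1-positive array 3 (1.24, adjusted p = 0.0558, and 1.84, adjusted p = 0.0519) and held without each of the other arrays.

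Dnmt1, the copying enzyme, was called higher by all 3 of its probe sets, without overlap of the arrays in any. Probe set 1422946_a_at measured 11.55, 11.62 and 11.74 on Thy1-positive arrays 1, 2 and 3, against 10.64, 11.24 and 10.69 on Thy1-negative arrays 1, 2 and 3. It was 1.71-fold higher (0.78, SE 0.19, limma adjusted p = 0.0463). The probe sets 1435122_x_at and 1447877_x_at, whose ending marks probes that Affymetrix expects to cross-hybridise, were 1.97-fold and 1.83-fold higher (0.98, SE 0.20, and 0.87, SE 0.18; limma adjusted p = 0.0297 and 0.0311). Thy1-negative array 2 was the highest of its fraction in all 3 probe sets. Without that array the differences were 0.97, 1.17 and 0.95, and all 3 stayed called. Without any other single array only 1447877_x_at stayed called, once, when Thy1-positive array 2 was left out (1.02), and the differences otherwise lay between 0.67 and 1.06. The call of 1422946_a_at was also lost with quantile normalization (0.71, adjusted p = 0.0619), with housekeeping centring (0.66, adjusted p = 0.0517) and with a pseudocount of 16 (0.77, adjusted p = 0.0521).

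Hells, the remodeller, had no called probe set. Its brightest, 1417541_at, measured 13.40, 13.22 and 13.39 on Thy1-positive arrays 1, 2 and 3, against 12.27, 13.09 and 12.52 on Thy1-negative arrays 1, 2 and 3. The fractions did not overlap, but Thy1-negative array 2 came close to the Thy1-positive arrays, and the difference of 0.71 (SE 0.23) did not pass (limma adjusted p = 0.103). Without Thy1-negative array 2 it was 0.94 and passed (adjusted p = 0.0110). Without each of the other arrays it was 0.53 to 0.77 and did not pass (limma adjusted p of 0.180 to 0.270). The dimmer probe sets 1453361_at and 1430139_at differed by 0.11 (SE 0.35) and -0.47 (SE 0.34), with overlapping arrays.

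Genes of S phase and mitosis were measured beside the maintenance genes. Of 19 genes 9 were called higher and 0 lower, with a median difference of 0.53, where over all 18193 genes 16.4% were called higher and 13.2% lower (29.6% in all) with a median of 0.01. The largest called differences were those of E2f1, the transcription factor gene (1.64, SE 0.18), Rfc4, a subunit of the loader of the replication clamp (1.10, SE 0.21), and Gins1, a subunit of the replicative helicase (1.00, SE 0.25). The proliferation marker Mki67 differed by 0.17 (SE 0.20) and Cdk1 by -0.40 (SE 0.26), and neither was called. With 1 array left out the list held 1 called gene (without Thy1-positive array 3), 2 (without Thy1-positive array 1 or Thy1-negative array 3) or 3 (without Thy1-negative array 1), and 9 or 10 otherwise. The part of dividing cells in the values of Dnmt1 and Uhrf1 was not tested.

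The 5 probe sets of Dnmt3a, a de novo methyltransferase, were called in both directions. Probe set 1423066_at, the brightest over all arrays, measured 9.83, 9.97 and 9.83 on Thy1-positive arrays 1, 2 and 3, against 8.97, 9.43 and 9.29 on Thy1-negative arrays 1, 2 and 3. It was 1.57-fold higher (0.65, SE 0.14, limma adjusted p = 0.0327). Probe set 1423064_at measured 9.23, 9.35 and 9.26 in Thy1-positive against 6.99, 8.38 and 7.44 in Thy1-negative cells, and was 3.20-fold higher (1.68, SE 0.38, limma adjusted p = 0.0411). Thy1-positive arrays were nearly level in both, and Thy1-negative array 2 was the highest of its fraction in both.

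The other Dnmt3a probe sets ran the opposite way. Probe set 1460324_at measured 7.27, 7.52 and 7.15 on Thy1-positive arrays 1, 2 and 3, against 9.77, 8.98 and 9.54 on Thy1-negative arrays 1, 2 and 3. The mean was 4.35-fold lower (-2.12, SE 0.24, limma adjusted p = 0.00846). Probe set 1423063_at measured 8.04, 8.51 and 8.19 in Thy1-positive against 9.73, 9.28 and 9.62 in Thy1-negative cells, 2.45-fold lower (-1.30, SE 0.18, limma adjusted p = 0.0128). Here Thy1-positive array 2 was the highest of its fraction and Thy1-negative array 2 the lowest of its own. The dimmest, 1423065_at, measured 4.67, 5.20 and 5.27 in Thy1-positive against 6.09, 5.91 and 6.89 in Thy1-negative cells, and its difference of -1.25 (SE 0.33) did not pass (limma adjusted p = 0.0602).

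**Figure D2:**
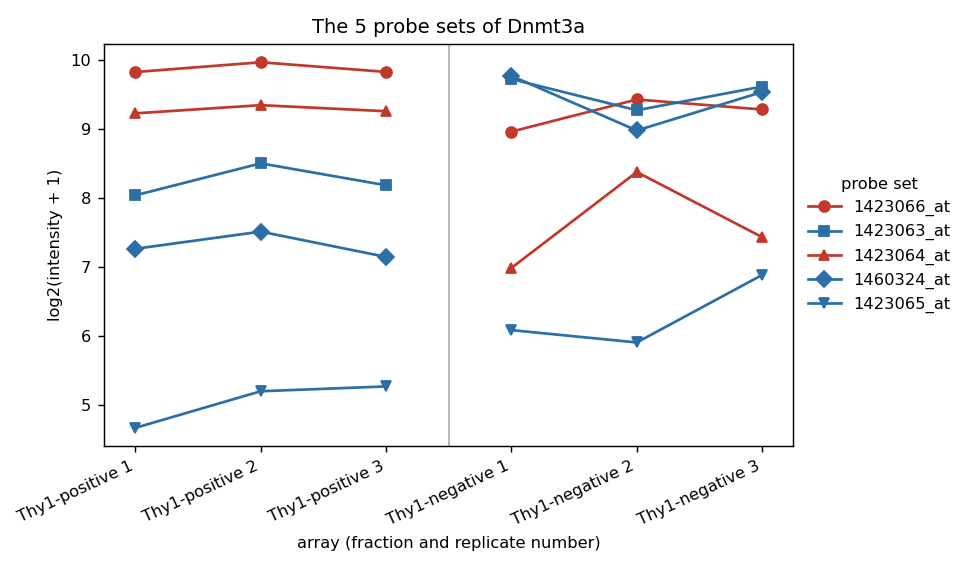
Log2(intensity + 1) of the 5 Dnmt3a probe sets on each array, Thy1-positive arrays left and Thy1-negative arrays right of the grey line; red marks probe sets with a higher mean in Thy1-positive cells, blue those with a lower mean, and lines only join the points of 1 probe set. The red and blue probe sets lie apart on the Thy1-positive arrays, and on the Thy1-negative arrays 1460324_at and 1423063_at lie near 1423066_at.

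Within each array, which removes any scaling between arrays, 1423066_at minus 1460324_at was 2.56, 2.46 and 2.68 on Thy1-positive arrays 1, 2 and 3, against -0.81, 0.45 and -0.25 on Thy1-negative arrays 1, 2 and 3. The mean of this quantity was thus 2.77 higher in Thy1-positive cells; the pair was chosen after the values were seen, and it is given as a description. The call of 1460324_at held in each of the 6 fits without 1 array (-2.35 to -1.95). That of 1423063_at was lost without Thy1-negative array 3 (-1.26) or Thy1-positive array 3 (-1.27). That of 1423064_at held only without Thy1-negative array 2 (2.07; 1.37 to 1.70 in the others), and that of 1423066_at only without Thy1-negative array 1 (0.52) or 2 (0.75). The call of 1423066_at was also lost with housekeeping centring (0.53, adjusted p = 0.0519), and no setting turned the direction of any of the 5.

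RefSeq gives Dnmt3a separate starts on the plus strand of chromosome 12, the last of them 84584 bases after the one before it. In mice the downstream start is known to give the shorter form DNMT3A2, and the upstream one the full-length form. The bases before the first and the last start are shown 5′ to 3′ (GRCm38.p6), with CpG sites in capitals; they are shown because the forms of the gene arise from these starts.
Dnmt3a first start, chr12:3806730-3806979: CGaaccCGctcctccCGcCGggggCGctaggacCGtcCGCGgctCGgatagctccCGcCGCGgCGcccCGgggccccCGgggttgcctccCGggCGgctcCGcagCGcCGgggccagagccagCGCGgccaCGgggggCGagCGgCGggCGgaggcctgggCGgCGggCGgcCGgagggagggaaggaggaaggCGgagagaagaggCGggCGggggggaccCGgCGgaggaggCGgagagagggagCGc
Dnmt3a last start, chr12:3891494-3891743: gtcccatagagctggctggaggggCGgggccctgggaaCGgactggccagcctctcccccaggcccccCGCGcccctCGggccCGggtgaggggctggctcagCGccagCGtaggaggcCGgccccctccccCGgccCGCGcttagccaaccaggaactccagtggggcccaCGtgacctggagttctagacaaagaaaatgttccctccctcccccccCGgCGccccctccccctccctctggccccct
The first window holds 38 CpG sites and the last 15, against a median of 6 over all start windows. Which transcripts each Dnmt3a probe set reads was not analysed here; the platform annotation ties all 5 to the same source sequence.

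Dnmt3b, the other de novo enzyme, had no called probe set. Probe set 1449052_a_at measured 11.02, 10.93 and 11.04 on Thy1-positive arrays 1, 2 and 3, against 9.44, 10.97 and 9.98 on Thy1-negative arrays 1, 2 and 3. The Thy1-positive arrays were level, whereas the Thy1-negative arrays spread widely (SD 0.06 against 0.78), and Thy1-negative array 2 fell inside the Thy1-positive range. The difference was 0.86 (SE 0.42, limma adjusted p = 0.236), and it was 1.29 and passed without Thy1-negative array 2 (adjusted p = 0.0186). Without each of the other arrays it was 0.52 to 0.90 and did not pass (limma adjusted p of 0.368 to 0.454). Probe set 1418351_a_at measured 8.44, 8.82 and 8.59 in Thy1-positive against 7.30, 8.79 and 7.92 in Thy1-negative cells, with a difference of 0.61 (SE 0.42, limma adjusted p = 0.403). Without Thy1-negative array 2 its difference was 1.00 and did not pass (limma adjusted p = 0.0634).

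Dnmt3l, the partner without catalytic activity, was dim in both fractions. Its probe set 1425035_s_at measured 3.05, 3.23 and 3.00 in Thy1-positive against 2.89, 2.98 and 3.00 in Thy1-negative cells, all below the array medians. The difference of 0.13 (SE 0.07) did not pass (limma adjusted p = 0.282). At such a signal a difference in Dnmt3l may not be detectable with this probe set.

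Tet1 and Tet2 had called probe sets, all lower in Thy1-positive cells. Tet1 probe set 1455425_at measured 5.61, 6.08 and 5.91 on Thy1-positive arrays 1, 2 and 3, against 7.74, 7.31 and 8.04 on Thy1-negative arrays 1, 2 and 3. The fractions did not overlap, and the mean was 3.56-fold lower (-1.83, SE 0.23, limma adjusted p = 0.0108). Probe set 1429448_s_at measured 2.79, 2.63 and 2.90 in Thy1-positive against 4.82, 4.26 and 5.74 in Thy1-negative cells, and was called lower (limma adjusted p = 0.0252). Its Thy1-positive values lie near the 25th percentile of the arrays (2.67 to 2.68), so no size is given for its difference. Probe set 1419896_at was at 2.91 on all 3 Thy1-positive arrays, against 4.58, 2.90 and 4.53 on Thy1-negative arrays 1, 2 and 3, and did not pass (limma adjusted p = 0.221). Probe set 1419897_at lay between 3.09 and 3.15 on all arrays. The call of 1455425_at was lost without Thy1-positive array 3 (-1.85, adjusted p = 0.0554). That of 1429448_s_at held only without Thy1-negative array 2 (adjusted p = 0.0140) or 3 (adjusted p = 0.0332), was lost without each of the others (adjusted p of 0.0773 to 0.0924), and was lost with a pseudocount of 16 (adjusted p = 0.0585). Without Thy1-negative array 2, 1419896_at was called (limma adjusted p = 0.000260), and without each of the other arrays it was not. Its equal Thy1-positive values have an SD of 0 and lie near the 25th percentile, which limits what that p can tell.

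Tet2 was lower in Thy1-positive cells by 1 of its 2 probe sets. Probe set 1438781_at measured 5.08, 5.33 and 5.33 on Thy1-positive arrays 1, 2 and 3, against 6.53, 6.23 and 6.66 on Thy1-negative arrays 1, 2 and 3. It was 2.34-fold lower (-1.23, SE 0.14, limma adjusted p = 0.00875), and its call held in each of the 6 fits without 1 array (-1.35 to -1.13). Probe set 1455300_at measured 6.07, 6.39 and 6.20 in Thy1-positive against 7.93, 7.19 and 6.76 in Thy1-negative cells. Its arrays did not overlap, and the difference of -1.07 (SE 0.33) did not pass (limma adjusted p = 0.0858). Tet3 was dim on every array, at 2.63, 2.63 and 2.61 in Thy1-positive against 2.63, 2.75 and 2.77 in Thy1-negative cells (-0.10, SE 0.04, limma adjusted p = 0.199). It was called without Thy1-negative array 1 (-0.14) and not without any other single array.

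**Figure D3:**
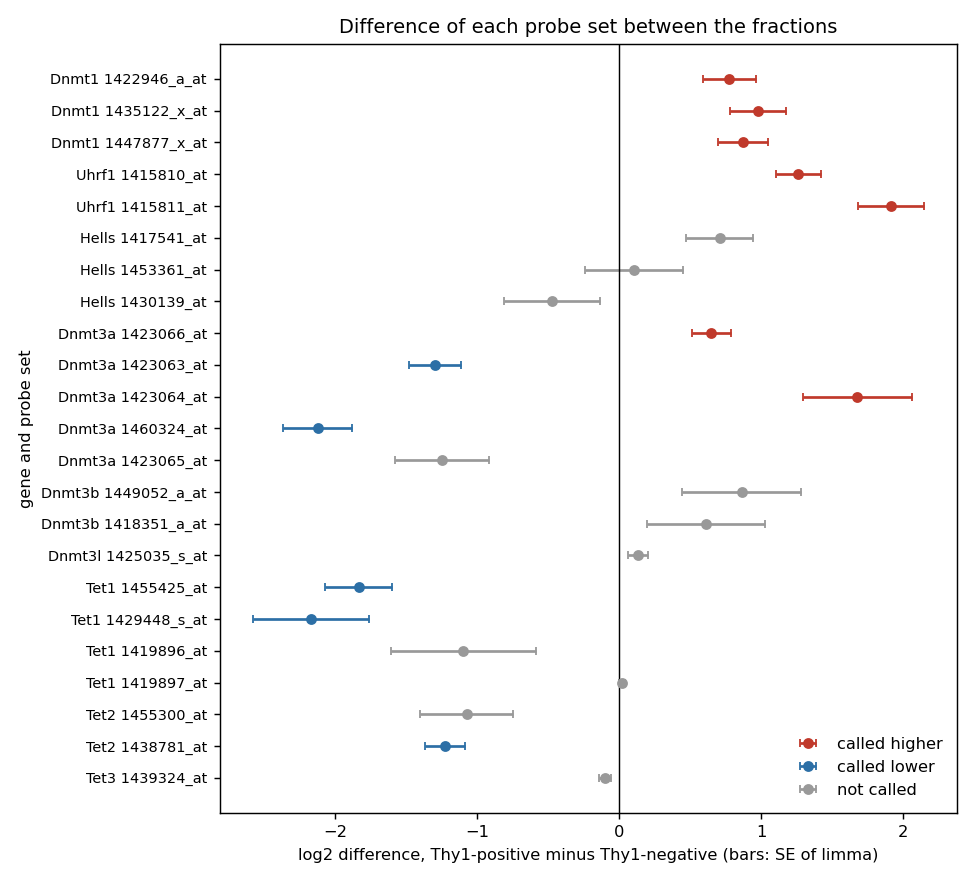
Log2 difference, Thy1-positive minus Thy1-negative, of each member probe set with the SE of limma (n = 3 arrays per fraction); red is called higher, blue called lower and grey not called. Uhrf1 and Dnmt1 lie right of 0 with all of their probe sets, the called probe sets of Tet1 and Tet2 lie left of it, and Dnmt3a has called probe sets on both sides; the sizes drawn for Tet1 1429448_s_at and 1419896_at rest on Thy1-positive values near the 25th percentile.

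The order of the 3 Thy1-negative arrays was set beside that of the cell type lists. The mean of the pan-germline list, the genes of the germ line at large, was 11.64, 11.61 and 11.64 on Thy1-positive arrays 1, 2 and 3, against 9.05, 10.84 and 9.60 on Thy1-negative arrays 1, 2 and 3. Of the 23 member probe sets 10 likewise had array 2 highest and array 1 lowest among the Thy1-negative arrays: all 3 of Dnmt1, both of Dnmt3b, Uhrf1 1415810_at, Hells 1417541_at and 1453361_at, and Dnmt3a 1423066_at and 1423064_at. Over all probe sets 16.2% had this order, and 27.3% of those with a mean above the median. The undifferentiated spermatogonia, peritubular myoid and methylation-silenced germline lists and the recruiters and protectors had it too. The mean of the Sertoli list was 6.10, 7.60 and 6.29 on Thy1-positive arrays 1, 2 and 3, against 10.73, 10.14 and 10.62 on Thy1-negative arrays 1, 2 and 3. Its order among the Thy1-negative arrays, array 1 highest and array 2 lowest, was that of 4 member probe sets, namely Dnmt3a 1460324_at and 1423063_at, Hells 1430139_at and the dim Tet1 1419896_at. Over all probe sets 32.9% had it, and 27.6% of those above the median, and so did the macrophage, Leydig, endothelial and 2-oxoglutarate lists. On Thy1-negative arrays the macrophage means (3.36 to 3.48) and endothelial means (3.45 to 3.98) lay below the array medians, so theirs is an order of dim values. The other 9 members had another order: Tet1 1455425_at and Tet2 1438781_at had array 2 lowest but array 3 highest, and Tet2 1455300_at had array 3 lowest. The part of the mix of cells in these values was not tested.

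**Figure D4:**
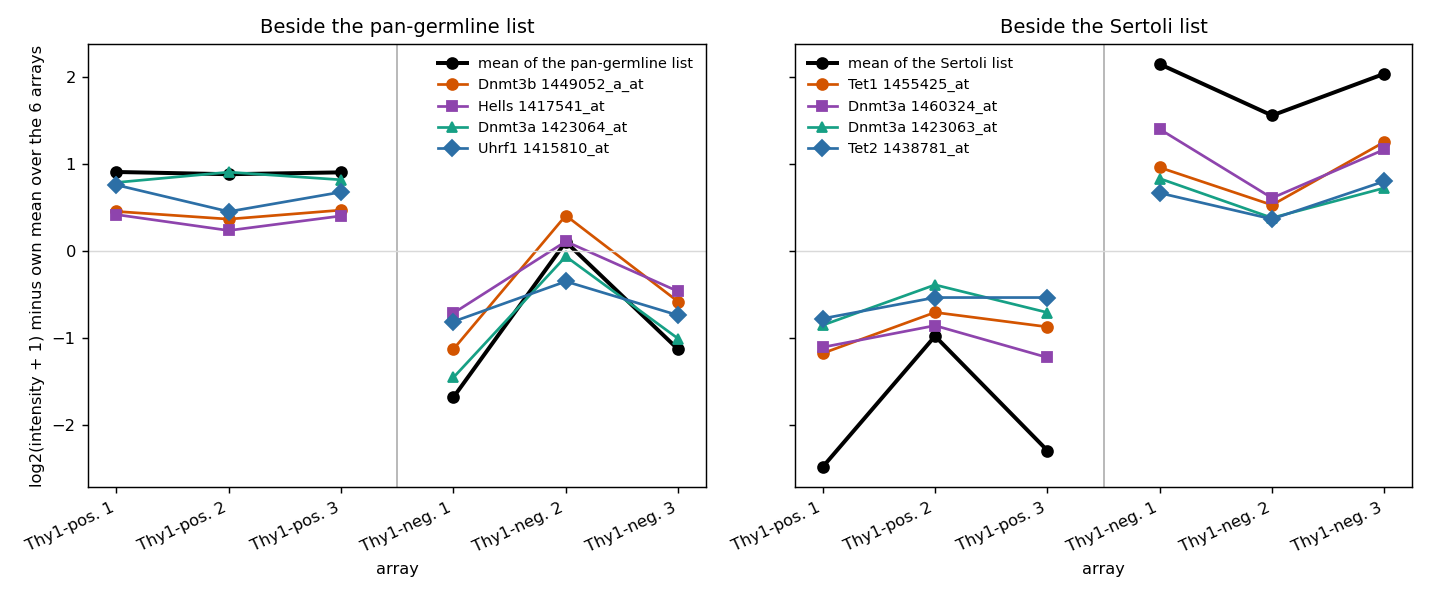
Log2(intensity + 1) minus its own mean over the 6 arrays, for the mean of the pan-germline list with 4 members (left panel) and for the mean of the Sertoli list with 4 members (right panel), Thy1-positive arrays left of the grey line; lines only join points of 1 item. The members drawn were picked with their values known. For these, Thy1-negative array 2 stands above the other Thy1-negative arrays in the left panel and below them in the right panel. Not drawn are, among others, Hells 1430139_at, with array 2 lowest, and Tet2 1455300_at, with array 3 lowest.

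Genes that work with the methylation enzymes were compared in lists chosen by role. Over all 18193 genes 16.4% were called higher and 13.2% lower (29.6% in all), with a median difference of 0.01. Of 16 measured recruiters and protectors of methylation, 4 were higher and 3 lower, with a median difference of 0.49. Morc1, a factor of transposon silencing in male germ cells, differed by 2.33 (SE 0.37), Tex19.1, a mammalian germ cell protein that restrains transposons, by 1.98 (SE 0.36), Cdca7, a partner of HELLS, by 1.47 (SE 0.23) and its paralogue Cdca7l by 1.32 (SE 0.21). Those lower were Cxxc5 (-1.16, SE 0.24) and Cxxc4, CXXC zinc finger genes related to the DNA-binding part of TET proteins, and the insulator protein gene Ctcf (-0.68, SE 0.08). Cxxc4 measured 2.85, 2.85 and 2.86 on Thy1-positive arrays 1, 2 and 3, against 6.70, 5.43 and 6.28 on Thy1-negative arrays 1, 2 and 3 (limma adjusted p = 0.00743). Its Thy1-positive values lie near the 25th percentile of the arrays, so no size is given for its difference. Pcna, the replication clamp that DNMT1 binds, differed by 0.43 (SE 0.15) and was not called. Dppa3 and Zfp57, protectors of methylation in early embryos, lay close to the 25th percentile of the arrays (Thy1-positive means of 2.66 for Dppa3 and 2.70 for Zfp57, against Thy1-negative means of 2.75 for Dppa3 and 2.70 for Zfp57). With 1 array left out 0 to 6 of the list were called higher and 2 to 3 lower.

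Of 7 measured genes listed as readers of methylated CpG sites or their relatives, 2 were higher and 2 lower, with a median of 0.11. The shares over all genes were 16.4% higher and 13.2% lower. Zbtb33, which encodes Kaiso, and Mbd3 rose by 0.83 (SE 0.12) and 0.64 (SE 0.12), while Zbtb4 and Mbd1 were lower (-1.82, SE 0.35, and -0.98, SE 0.22). Of 12 genes of excision repair and related demethylation, 4 were higher and 2 lower, with a median of 0.46. Apobec1, a cytidine deaminase, differed by 1.40 (SE 0.29). Its Thy1-negative values of 4.09, 4.08 and 4.20 lay near the array medians, so this size rests on dim values. The poly(ADP-ribose) polymerase Parp1 differed by 1.14 (SE 0.18) and the abasic site nuclease Apex1 by 0.87 (SE 0.09). Gadd45g (-1.38, SE 0.29) and the glycosylase Smug1 (-0.67, SE 0.10) were lower. With 1 array left out, 0 to 3 genes of the reader list were called higher and 0 to 3 lower, and 1 to 3 repair genes were higher and 0 to 2 lower.

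Of 10 measured genes of the methyl donor cycle, 1 was higher and 0 lower, with a median of 0.06. The higher gene was Shmt2, the mitochondrial enzyme that feeds one-carbon units (1.38, SE 0.15). Among all genes 16.4% were called higher and 13.2% lower. Ahcy, which clears the product of every methylation reaction, differed by -0.05 (SE 0.11). Of 9 genes that make or use 2-oxoglutarate or its relatives, the co-substrate of TET enzymes, only Idh1 was called, lower (-0.67, SE 0.14), with a list median of -0.20; with 1 array left out 0 to 4 of the list were called lower, the 4 without Thy1-negative array 2, and 1 to 4 of the methyl donor cycle were called higher.

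Of 13 measured germline genes that DNA methylation is known to keep silent in somatic cells, 3 were called higher and 0 lower, with a median of 1.56. They were Stk31 (2.10, SE 0.49), Asz1 (2.09, SE 0.42) and Brdt (1.56, SE 0.29). Among all genes 16.4% were called higher and 13.2% lower, with a median of 0.01. For all 13 the fractions did not overlap, with Thy1-positive arrays above, as for all 12 pan-germline genes and for 31.6% of all genes. The count was 13 without Thy1-negative array 2 and 0 without any other single array, and 5 of the genes are also in the pan-germline list. Their summed intensity was 68507 to 74076 in Thy1-positive against 16982 to 48582 in Thy1-negative cells.

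**Figure D5:**
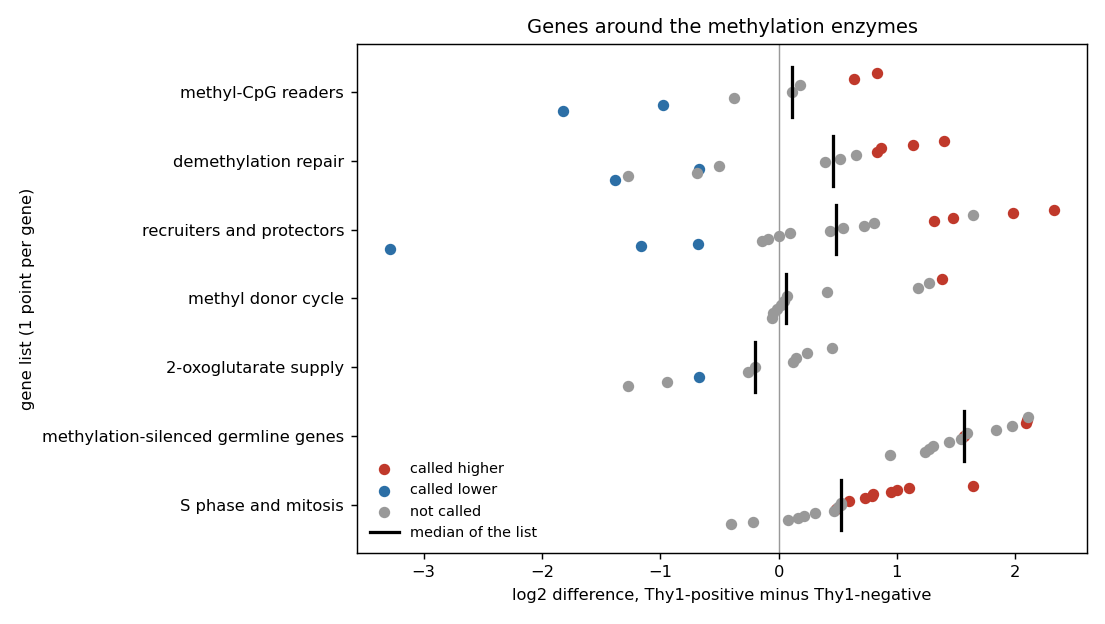
Log2 difference, Thy1-positive minus Thy1-negative, of each gene in 7 lists around the methylation enzymes, 1 point per gene; red is called higher, blue called lower, grey not called, and the black bar is the median of the list. The list of methylation-silenced germline genes lies wholly right of 0, and the reader and repair lists lie on both sides. The point farthest left is Cxxc4, whose Thy1-positive values lie near the 25th percentile.

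Genes whose pattern over the 6 arrays lay nearest to a member were sought by the distance between mean-centred log2 values, over 11255 genes above the median. Nearest were Cpsf1 and Tfdp1 to Dnmt1 (0.07 and 0.08), Txlna and Leprotl1 to Uhrf1 (both 0.08), Hmces and Safb to Hells (0.07 and 0.08), and Lrrfip2 and Ctns to Dnmt3a 1423066_at (0.09 and 0.11). They were Uba1y and Setdb2 for Dnmt3b (0.11 and 0.17), Nfkbia and Rhobtb1 for Tet1 (0.12 and 0.21), and Samd14 and Hexdc for Tet2 1455300_at (0.36 and 0.44). Dnmt3l and Tet3 were below the median and were not compared.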

How the data were processed

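RNA of 6 mouse testis samples was measured on Affymetrix arrays, 1 per sample. Each probe set has 1 linear intensity per array, as the authors deposited it. GCRMA is the tool in the submitters' processing notes, whereas the labels' descriptions speak of Affymetrix Microarray Suite with chip averages set to 150. Trimmed means of 287 to 293 do not show that scaling, and the sources used here do not settle how the values were made. The number of arrays limits precision.

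Of 45101 probe sets 64 Affymetrix controls were left out. Values were log2(intensity + 1), without filter or further normalization. Symbols came from the platform annotation (34945 probe sets with 1 gene, 932 with several, 9160 with none); 0 were updated through RefSeq and 204 had no match. The fractions were compared with limma 3.58.1 in R 4.3.3 (lmFit, eBayes), tested on simulated data, with fraction as the only term, 2-sided, with Benjamini-Hochberg adjustment over 45037 probe sets. In lists the probe set with the highest mean stood for its gene. The rule for named genes was every probe set of the 9 members, up to 3 called genes per direction in each pathway list (all called recruiters), and the 2 nearest patterns; genes named beyond it, such as Mki67, Cdk1, Pcna, Dppa3, Zfp57, Ahcy and those with an E2F word, were chosen after their values were seen. Members and lists were chosen with earlier results of these data known. Alternatives were quantile normalization, centring on the median or on housekeeping genes, an intensity filter, a floor, a pseudocount of 16, a replicate block, a variance trend, array weights, each array left out, and 1 probe set per gene.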

Additional observations from a re-analysis of the deposited data

How the results depend on the processing

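The called members kept their direction under all alternatives run. The 7 higher and 5 lower member probe sets became 11 and 8 with array weights, 10 and 7 with median centring, 5 and 7 with housekeeping centring, 3 and 1 of 9 with 1 probe set per gene (fewer tested), 0 to 9 and 2 to 6 with 1 array left out, and 0 and 0 without both arrays numbered 3, an alternative chosen after seeing the data. With the replicate number as a block the counts were 0 and 0 by limma, where 7 and 6 had an unadjusted p below 0.05 (2 and 7 without both arrays numbered 3, and 7 and 6 without Thy1-positive array 3, where 0 higher and 2 lower were called). Over all probe sets, 5332 higher and 5201 lower became 746 and 485 with the replicate block, 13345 and 10596 with array weights, 219 and 144 without both arrays numbered 3, and 25863 higher with median centring; with 1 array left out they were 1639 to 6790 and 1538 to 6214. In the fit with 1 probe set per gene, 18.5% of all 18193 genes were called higher and 14.4% lower. The array numbers share no stated preparation, so same-numbered arrays were not taken as pairs. Their deviations correlated at -0.19, -0.17 and -0.01. This cannot decide the question, since arrays of a shared preparation may also deviate in opposite directions. Whether same-numbered arrays share a preparation is thus not known, and the counts with the block stand beside those reported. Among members never called in the reported fit, signs turned for Hells 1453361_at (-0.0087 with housekeeping centring, -0.10 to 0.45 with 1 array left out, -0.088 without both arrays numbered 3), Tet1 1419897_at (-0.093 with housekeeping centring) and Tet3 (0.026 with median centring); the cause was not tested. Probe sets with means below the array median in both fractions (those of Dnmt3l and Tet3, Tet1 1419896_at and 1419897_at) are limited by their signal. So is Tet1 1429448_s_at, whose mean lay below it in Thy1-positive cells only.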
